A study of Rattus norvegicus with 20 samples.

Results

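Rat kidney RNA was examined here for 8 genes that carry cystine into cells, make and recycle glutathione, and set how readily membrane lipids are oxidised in ferroptosis. The genes were Slc7a11, Slc3a2, Gclc, Gclm, Gss, Gsr, Gpx4 and Acsl4, taken by gene symbol from a table of 34681 rows. All 8 were in the table and passed the filter on low values, which left 15954 rows for testing. The study modelled kidney injury that follows trauma. Kidneys were frozen in nitrogen, and their mRNA was read with strand kept and from both ends of each fragment. By disease label there are 20 libraries in 4 groups: Sham and RM have 6 each, HS has 5 and RM-HS has 3. The labels do not spell out RM or HS, and the sources used here state no strain, sex, age or time after injury. The design text counts 19 libraries with 5 of RM, and all 6 libraries labelled RM were used. Libraries are not tied to individual animals in the sources used here, and p-values therefore measure only the spread between libraries, which may be technical.

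Cystine, the oxidised form of cysteine, enters cells through system xc-, an exchanger of cystine for glutamate made of the transport chain Slc7a11 and the heavy chain Slc3a2. Inside the cell it is reduced to cysteine, which glutamate-cysteine ligase (Gclc and Gclm) and then glutathione synthetase (Gss) build into glutathione. Gpx4 uses glutathione to reduce lipid hydroperoxides in membranes, Gsr regenerates the reduced form, and Acsl4 loads polyunsaturated fatty acids into the phospholipids that such peroxidation attacks. Ferroptosis is the iron-dependent cell death that follows when this peroxidation is not held back, and it is known in tubules of the injured kidney.

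Each library held between 45047179 and 109940948 reads, of which 42.2% to 54.7% lay on 14 mitochondrial rows. Sham libraries 2 to 5 stood apart from Sham 1 and 6. The summed level of 7 early proximal tubule markers was 79759 to 149748 in Sham 2 to 5, against 251499 to 253943 in Sham 1 and 6 and 228275 to 410043 in the 14 other libraries. The summed level of 5 podocyte markers was 1832 to 5012 in Sham 2 to 5 and 7536 to 10696 in all other libraries. Results against Sham are therefore given with all 6 controls and, where it matters, with Sham 1 and 6 alone. Library names begin with R or S: all Sham and RM-HS libraries begin with R, as do 1 RM library (RM 1) and 3 HS libraries, while 5 RM and 2 HS libraries begin with S. What the letter stands for is not given in the sources used here. Neutrophil markers, of which 4 of 5 were in the table, summed to 867 to 4629 in Sham, 4823 to 19970 in RM, 1854 to 8074 in HS and 7443 to 12371 in RM-HS. Collecting duct principal cell markers summed to 30473 to 82831 in Sham and 7700 to 34332 in the injured libraries, and thick ascending limb markers to 178110 to 296876 and 72475 to 200302. Red blood cell markers, 2 of 4 in the table, summed to 57675 to 312976 in Sham, 113773 to 301256 in RM, 21707 to 113528 in HS and 92607 to 276599 in RM-HS. The part of these cells in the results was not tested. In whole tissue, fewer cells of a type and less RNA per cell cannot be told apart.

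The upstream sequences of the member genes show where letters of the antioxidant response element, the binding element of Nrf2 (Nfe2l2), occur near their starts. Windows of 250 bases before the annotated start were taken from RefSeq on the GRCr8 build, which held 7 of the 8 members, without Gsr. The core TGACNNNGC was searched on both strands, with the AP-1 site TGANTCA, the cAMP response element TGACGTCA and the Atf4-type site TGATGNAA. Of 33469 such windows in the table, 10.1% held the first, 6.34% the second, 1.59% the third and 3.40% the fourth. Gclm and the second of 2 annotated starts of Slc3a2 held the antioxidant core, and no other member window held any of the 4. The windows shown are those of Slc7a11, the member with the largest rise, and of the genes with a match. They lie at chr2:136668265-136668514 on the minus strand for Slc7a11, chr1:215039671-215039920 on the minus strand for Slc3a2, and chr2:213031885-213032134 on the plus strand for Gclm. Each is written 5′ to 3′ along its gene, and capitals mark the match, which reads in reverse complement. The Slc3a2 match spans positions -45 to -37 and the Gclm match -172 to -164 from the start. A match is a description of letters and not a binding site.
Slc7a11: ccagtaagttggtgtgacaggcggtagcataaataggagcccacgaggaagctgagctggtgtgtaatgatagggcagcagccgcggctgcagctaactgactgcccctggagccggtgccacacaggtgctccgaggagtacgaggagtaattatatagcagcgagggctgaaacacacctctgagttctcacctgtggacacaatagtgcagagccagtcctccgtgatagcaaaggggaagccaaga
Slc3a2: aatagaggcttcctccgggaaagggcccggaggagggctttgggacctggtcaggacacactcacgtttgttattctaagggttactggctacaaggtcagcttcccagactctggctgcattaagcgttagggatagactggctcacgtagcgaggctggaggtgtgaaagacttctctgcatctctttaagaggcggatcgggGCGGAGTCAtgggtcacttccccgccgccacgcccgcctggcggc
Gclm: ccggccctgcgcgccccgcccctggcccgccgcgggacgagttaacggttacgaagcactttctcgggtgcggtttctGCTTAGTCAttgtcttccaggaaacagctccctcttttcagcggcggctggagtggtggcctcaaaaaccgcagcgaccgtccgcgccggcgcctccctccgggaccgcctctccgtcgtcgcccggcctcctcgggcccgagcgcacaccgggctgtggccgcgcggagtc

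**Figure D1:**
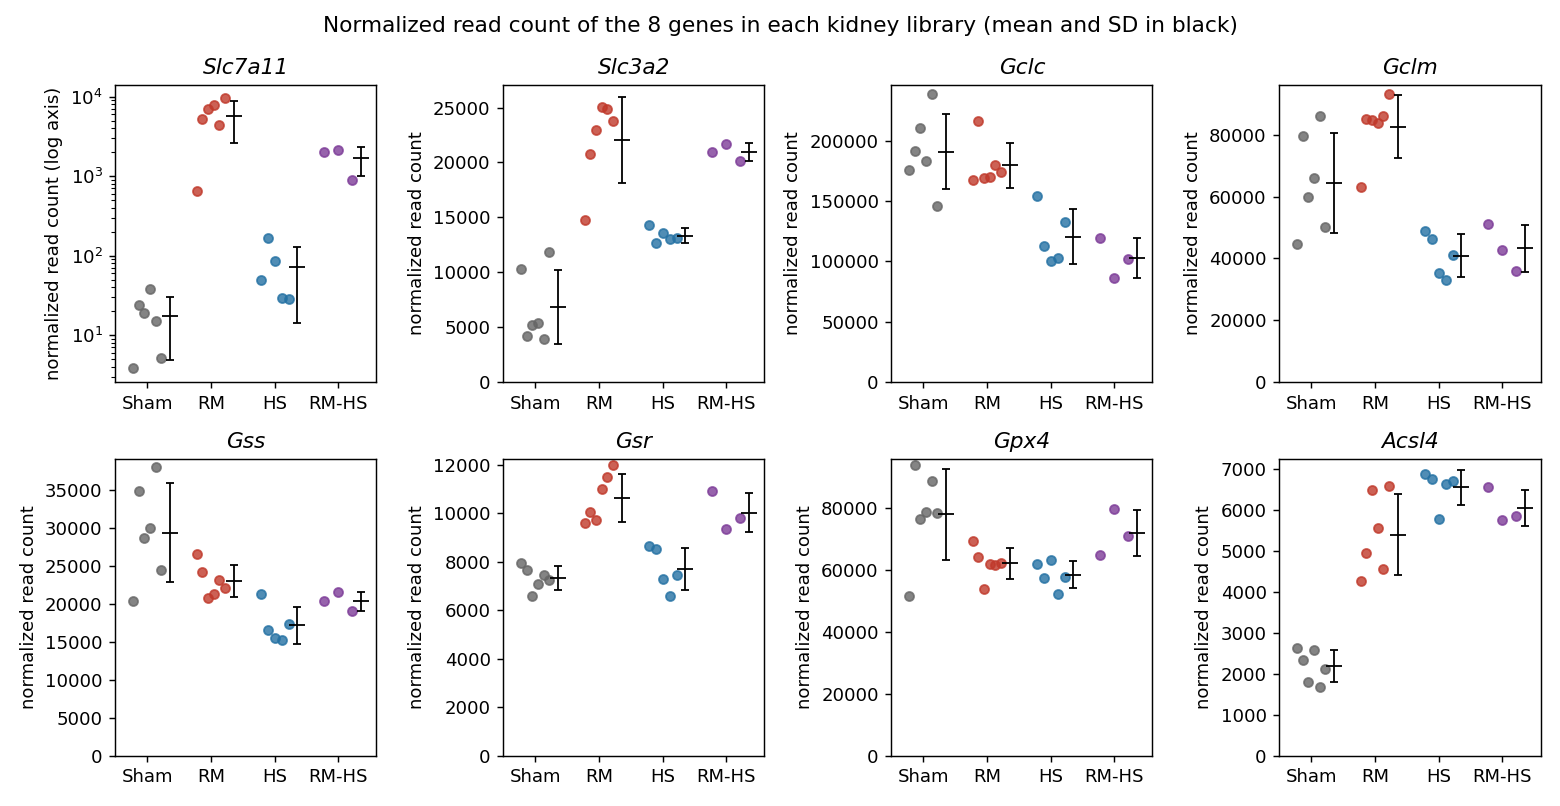
Normalized read count of each member in each of the 20 libraries (vertical axis, logarithmic for Slc7a11 only), by group, with points for libraries and black bars for mean and SD. In Slc7a11 the 6 RM libraries sit between 651 and 9529 and the 6 Sham libraries between 3.80 and 37.7.

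Slc7a11, the cystine-transporting chain (GSRG0016319, rn6 chr2:139453774-139528162), was near the floor in Sham and high in RM. Its normalized read counts were 3.80, 24.1, 19.1, 37.7, 15.1 and 5.14 in Sham 1 to 6, which rest on 3 to 32 reads a library. In RM 1 to 6 it stood at 651, 5254, 6917, 7874, 4354 and 9529. HS 1 to 5 had 49.0, 166, 85.7, 29.4 and 28.8, and RM-HS 1 to 3 had 2006, 2131 and 899. No RM or RM-HS library overlapped Sham or HS, HS overlapped Sham, and RM 1, the RM library named with R, lay below all 3 RM-HS libraries and the other RM libraries. On the log2(value + 1) scale used for every test, which understates changes of low genes, Slc7a11 was 307-fold above Sham in RM (8.26 ± 0.61 SE, limma adjusted p = 3.4e-09) and 108-fold in RM-HS (6.76 ± 0.75, limma adjusted p = 1.5e-06). The HS rise was 4.0-fold (2.00 ± 0.64, limma adjusted p = 0.015). It was lost when HS 2 was left out (1.62, limma adjusted p = 0.055) and when the name letter entered the model (1.83, limma adjusted p = 0.054). Group means ± SD were 17.5 ± 12.6 in Sham, 5763 ± 3109.6 in RM, 71.7 ± 57.3 in HS and 1679 ± 678 in RM-HS. In that order of levels, RM over RM-HS over HS over Sham, RM and RM-HS did not differ beyond their spread (-1.5 ± 0.75 for RM-HS against RM, limma adjusted p = 0.34). With Sham 1 and 6 alone the rises were 9.68, 3.42 and 8.17 in RM, HS and RM-HS (limma adjusted p = 4.9e-07, 0.0071 and 1.6e-05). Among libraries named with R, RM is RM 1 alone, and the rise there was 5.49 (limma adjusted p = 0.0074). Neutrophil marker sums were also higher in RM and RM-HS than in Sham, and their part in the result was not tested.

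Slc3a2, the heavy chain that brings Slc7a11 and several other transporters to the cell surface (GSRG0004840, rn6 chr1:224906566-224921029), was higher in all 3 injury groups. Sham ranged from 3935 to 11803 with a median of 5305, and its highest values were 10268 in Sham 1 and 11803 in Sham 6. RM ranged from 14747 in RM 1 to 25080 with a median of 23371.5, HS held 14310, 12613, 13609, 13009 and 13077.5, and RM-HS held 20979, 21718 and 20091. Every injured library lay above every Sham library, and every RM library above every HS library. The rises were 3.50-fold in RM (1.81 ± 0.22, limma adjusted p = 1.1e-06), 2.15-fold in HS (1.10 ± 0.23, limma adjusted p = 0.00053) and 3.38-fold in RM-HS (1.76 ± 0.26, limma adjusted p = 3.4e-05). Against Sham 1 and 6 alone the rise was smaller in RM (0.98, limma adjusted p = 0.00021) and RM-HS (0.93, limma adjusted p = 0.0012), and it did not pass in HS (0.27, limma adjusted p = 0.21). Sham 1 and 6 were also the controls with high early proximal tubule markers. The summed level of 4 late proximal tubule markers went the other way, with 65662 to 76536 in Sham 1 and 6 and 76165 to 113959 in Sham 2 to 5. The part of proximal tubule cells in the HS result was not tested. Among libraries named with R, RM 1 against Sham did not pass (1.25, limma adjusted p = 0.14).

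Slc3a2 also serves other light chains, and of 5 such genes 3 were higher in RM, 2 in HS and 3 in RM-HS. Over all tested genes 26.2%, 23.3% and 21.3% were higher and 26.8%, 23.2% and 21.0% lower in these groups. With Sham 1 and 6 alone 5250, 4105 and 4347 of all 15954 tested genes passed. Slc7a5, the large neutral amino acid transporter, rose by 1.75 ± 0.24 in RM and 1.94 ± 0.29 in RM-HS and had -0.61 ± 0.25 in HS, which did not pass. Slc7a7 and Slc7a8, transporters of the basolateral tubule membrane, rose in all 3 groups (3.18, 3.16 and 3.46 for Slc7a7, and 2.19, 1.64 and 2.55 for Slc7a8, in RM, HS and RM-HS). Sham SDs of 5449.8 and 2825 exceeded the Sham means of 4149.9 and 2469.6 for these genes, and neither was higher in any group against Sham 1 and 6 alone (0.33, 0.32 and 0.61 for Slc7a7, and -0.06, -0.61 and 0.29 for Slc7a8). The HS value of Slc7a8 was then called lower (limma adjusted p = 0.016), the other direction from that with all controls. Cystine from the filtrate is taken up by other carriers, and among 5 genes of luminal uptake and lysosomal export 2 rose and 1 fell in RM, 3 rose and 1 fell in HS, and 1 rose and 1 fell in RM-HS. Set against Sham 1 and 6 alone, 1 rose and 1 fell in RM and in RM-HS, and 1 rose in HS. Slc7a9, the luminal cystine carrier, was 1.17 ± 0.21 higher in HS and was 1.53 ± 0.21 lower in RM than in HS. Its HS value did not pass with Sham 1 and 6 alone (0.40, limma adjusted p = 0.070), and it was called lower in RM (-1.13, limma adjusted p = 6.7e-05). Slc1a1, a cysteine and glutamate carrier, rose in each group by 0.53 ± 0.09, 0.54 ± 0.10 and 0.83 ± 0.11.

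Gclc, the catalytic subunit that starts glutathione synthesis (GSRG0030392, rn6 chr8:85059051-85097468), was lower in HS and RM-HS. Sham ranged from 146435 to 238924 with a median of 187625, and RM from 167417 to 216549 with a median of 172384. HS held 154647, 112807, 100392, 102699 and 133058, and RM-HS held 119446, 86293 and 102418. RM lay within the Sham range, 4 of 5 HS libraries lay below it, and all RM-HS libraries lay below it. The change was -0.08 ± 0.14 in RM (limma adjusted p = 0.64), -0.67 ± 0.14 in HS (limma adjusted p = 0.00076) and -0.89 ± 0.17 in RM-HS (limma adjusted p = 0.00027). With only Sham 1 and 6 as controls the RM-HS fall passed (-0.66, limma adjusted p = 0.024), the HS difference did not (-0.43, limma adjusted p = 0.097), and the RM difference had the other sign (0.16, limma adjusted p = 0.53). In the order of levels, Sham and RM did not differ beyond their spread, nor did HS and RM-HS (-0.23 ± 0.17 for RM-HS against HS, limma adjusted p = 0.38).

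Gclm, the modifier subunit that raises the efficiency of the ligase (GSRG0015687, rn6 chr2:225827504-225847874), was high in RM and low in HS and RM-HS. RM ranged from 63182 in RM 1 to 93116.5 with a median of 84868, and Sham from 44732 to 85931 with a median of 63024. HS held 48995, 46149.9, 35361, 32981 and 40963, and RM-HS held 51177, 42719.5 and 35764. Sham overlapped every other group, while RM lay wholly above HS and RM-HS. Gclm rose 1.31-fold in RM (0.39 ± 0.15, limma adjusted p = 0.039) and fell by 0.63 ± 0.16 in HS (limma adjusted p = 0.0032) and by 0.55 ± 0.19 in RM-HS (limma adjusted p = 0.023). The RM call was lost without Sham 1, 3 or 6 or without any of RM 2 to 6 (limma adjusted p = 0.062 to 0.10), with upper quartile scaling (0.25, limma adjusted p = 0.18), with no filter (0.055) and in a fit of RM and Sham alone (0.056). In a fit of RM-HS and Sham alone the RM-HS call was lost (0.069), as it was without RM-HS 2 or 3 (limma adjusted p = 0.057 and 0.13). Against Sham 1 and 6 alone RM was 0.79 higher (limma adjusted p = 0.0026), and the HS and RM-HS differences did not pass (-0.23 and -0.15, limma adjusted p = 0.36 and 0.60). The difference of Gclm from Gclc within a library, on the log2 scale and not adjusted for gene length, had a mean of -1.59 ± 0.26 SD in Sham, -1.12 ± 0.20 in RM, -1.56 ± 0.17 in HS and -1.25 ± 0.25 in RM-HS, with ranges that overlapped.

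Gss, which joins glycine in the last step of glutathione synthesis (GSRG0021123, rn6 chr3:151076254-151106557), was lower than Sham in each injury group with all controls. Sham ranged from 20379 in Sham 1 to 37985 with a median of 29354, and RM from 20814 to 26545 with a median of 22612. HS held 21296, 16498.5, 15565, 15272 and 17325, and RM-HS held 20443, 21583 and 19065. Sham 1 and Sham 6 (24420) were the lowest controls, and each injury group overlapped Sham. Gss fell by 0.33 ± 0.12 in RM (limma adjusted p = 0.032), by 0.75 ± 0.13 in HS (limma adjusted p = 0.00011) and by 0.50 ± 0.15 in RM-HS (limma adjusted p = 0.012). The RM call was lost without Sham 2, 4 or 5 or without RM 3, 4 or 6 (limma adjusted p = 0.055 to 0.089), and the RM-HS call without RM-HS 3 (0.054). Fits of only the groups compared also lost them (limma adjusted p = 0.056 and 0.052). With only Sham 1 and 6 as controls the HS fall passed (-0.39, limma adjusted p = 0.04), and the RM and RM-HS values were 0.04 and -0.13 (limma adjusted p = 0.84 and 0.52).

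The supply of cysteine within the cell was described by 8 tested genes of the methionine and cysteine pathways, of which 2 rose and 3 fell in RM, 1 rose and 5 fell in HS, and 3 rose and 2 fell in RM-HS. Mat2a, which makes S-adenosylmethionine, fell by 1.53 ± 0.20, 1.59 ± 0.21 and 1.55 ± 0.25 in RM, HS and RM-HS. Cth, the enzyme that releases cysteine from cystathionine, fell by 0.61 ± 0.13, 1.03 ± 0.13 and 0.65 ± 0.16. Cbs, one step earlier, had 0.28 ± 0.11 in RM and 0.72 ± 0.13 in RM-HS, both called higher, and -0.16 ± 0.11 in HS, not called. Cars, the cysteinyl-tRNA synthetase, rose by 1.5 ± 0.12, 1.26 ± 0.12 and 1.53 ± 0.14. Against Sham 1 and 6 alone the falls of Mat2a passed in all 3 groups (-0.97, -1.03 and -0.99) and the fall of Cth in HS alone (-0.73), while Cbs was not called in RM (0.014), was called lower in HS (-0.43) and higher in RM-HS (0.45). The counts for the 8 genes were then 1 higher and 1 lower in RM, 1 and 4 in HS, and 2 and 1 in RM-HS. Of all 15954 tested genes 5250, 4105 and 4347 passed in that setting, and 53%, 46.4% and 42.3% with all controls.

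Gsr, the reductase that regenerates glutathione from its disulfide (GSRG0012300, rn6 chr16:62197617-62241361), separated the groups with RM from the others. Sham ranged from 6565 to 7933 with a median of 7349.9, and RM from 9614 to 11975 with a median of 10528. HS held 8634, 8515, 7272, 6590.1 and 7442, and RM-HS held 10895, 9339 and 9819.6. All 9 RM and RM-HS libraries lay above all 11 Sham and HS libraries. In the fit of libraries named with R, Gsr in RM 1 was 0.40 above Sham and 0.24 above HS. RM-HS was 0.30 above HS there. Gsr rose 1.45-fold in RM (0.54 ± 0.08, limma adjusted p = 1.3e-05) and 1.37-fold in RM-HS (0.45 ± 0.10, limma adjusted p = 0.00098). The HS difference was 0.07 ± 0.08 (limma adjusted p = 0.55), and its sign turned with upper quartile scaling (-0.06, limma adjusted p = 0.60). Sham 1 was the highest control at 7933 and Sham 6 lay at 7234, and with them alone both rises passed (0.49 and 0.40, limma adjusted p = 0.0049 and 0.032).

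Gpx4, the peroxidase that reduces phospholipid hydroperoxides (GSRG0028446, rn6 chr7:12516355-12519154), was lower than Sham in RM and HS with all controls. Sham ranged from 51460.2 in Sham 1 to 93740.4 with a median of 78587, and RM from 53722 to 69304 with a median of 61976. HS held 61759, 57331, 63024, 52131 and 57693, and RM-HS held 64715, 79607 and 71058. All groups overlapped Sham, and RM-HS lay above all HS libraries. Gpx4 fell by 0.31 ± 0.12 in RM (limma adjusted p = 0.033) and by 0.40 ± 0.12 in HS (limma adjusted p = 0.012), and RM-HS had -0.10 ± 0.14 (limma adjusted p = 0.61). The RM call was lost without any 1 of Sham 2 to 6 or RM 3 to 6 (limma adjusted p = 0.051 to 0.084), with no filter (0.054) and in a fit of RM and Sham alone (0.067). With only Sham 1 and 6 as controls no group passed in limma, with -0.04, -0.13 and 0.17 in RM, HS and RM-HS (limma adjusted p = 0.86, 0.57 and 0.47). Those 2 controls lay far apart in Gpx4, at 51460.2 in Sham 1 and 78483 in Sham 6. Sham 1 was the lowest control, while Sham 6 lay above every RM and HS library.

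Acsl4, the acyl-CoA synthetase that prefers arachidonic and adrenic acid (GSRG0034807, rn6 chrX:113596262-113659878), rose in all 3 groups. Sham ranged from 1676 to 2631 with a median of 2222, and RM from 4252 in RM 1 to 6571 with a median of 5253. HS held 6869.6, 6736, 5779, 6619 and 6700.4, and RM-HS held 6539, 5748 and 5832. Every injured library lay above every Sham library, and Sham 1 was the highest control while Sham 6 stood at 2119.96. Acsl4 rose 2.46-fold in RM (1.30 ± 0.12, limma adjusted p = 5.9e-08), 3.03-fold in HS (1.60 ± 0.13, limma adjusted p = 6.7e-08) and 2.80-fold in RM-HS (1.48 ± 0.15, limma adjusted p = 4.4e-07). Against Sham 1 and 6 alone the rises were 1.17, 1.47 and 1.35 (limma adjusted p = 4e-05, 3e-05 and 5e-05). RM and HS did not differ at the threshold (-0.30 ± 0.13 for RM against HS, limma adjusted p = 0.096). Within a library, Acsl4 minus Gpx4 on the log2 scale was -5.73 to -4.29 in Sham and -4.03 to -2.98 in the 14 injured libraries. These ranges did not overlap, nor did those of Acsl4 by itself.

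**Figure D2:**
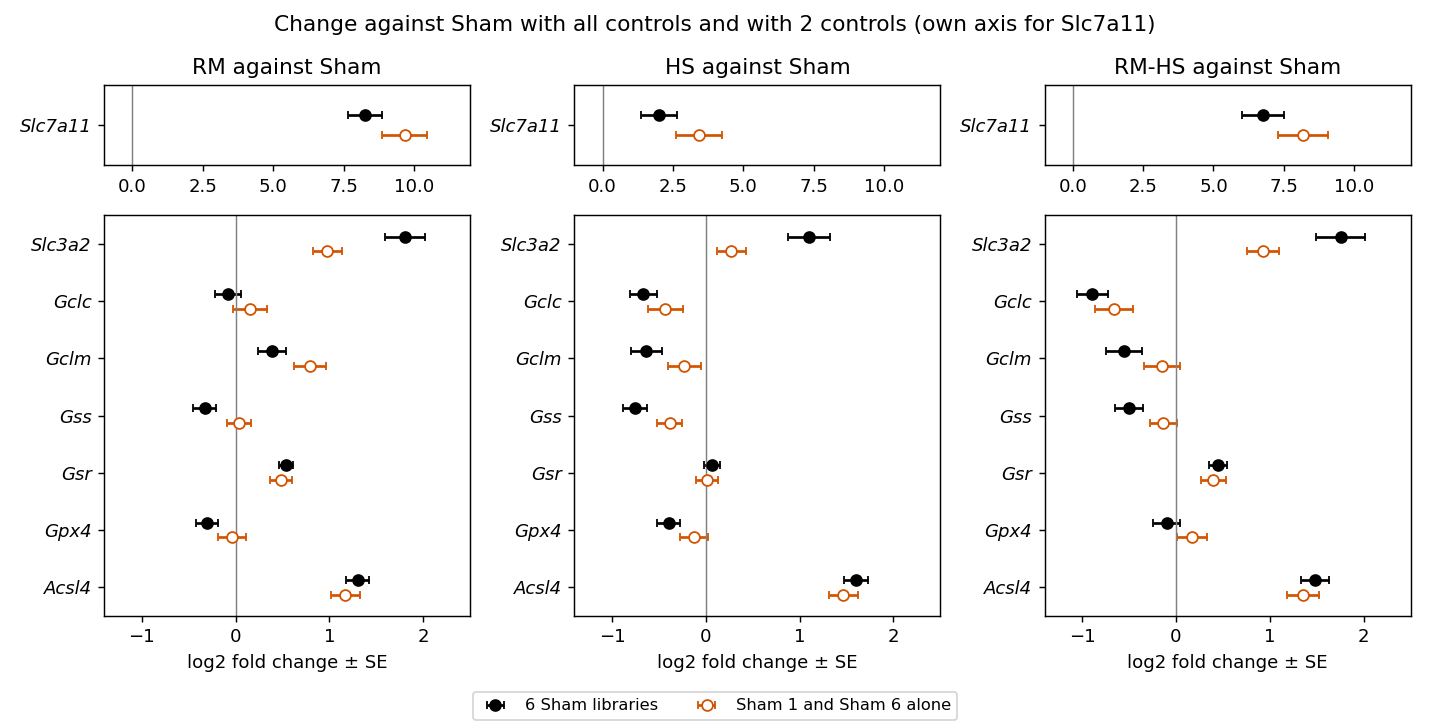
Log2 fold change ± SE of each member against Sham in RM, HS and RM-HS (horizontal axis, with a separate axis for Slc7a11), with all 6 Sham libraries (filled) and with Sham 1 and 6 alone (open). Acsl4 stays between 1.17 and 1.60 with both sets of controls, whereas Slc3a2 in HS moves from 1.10 to 0.27.

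**Figure D3:**
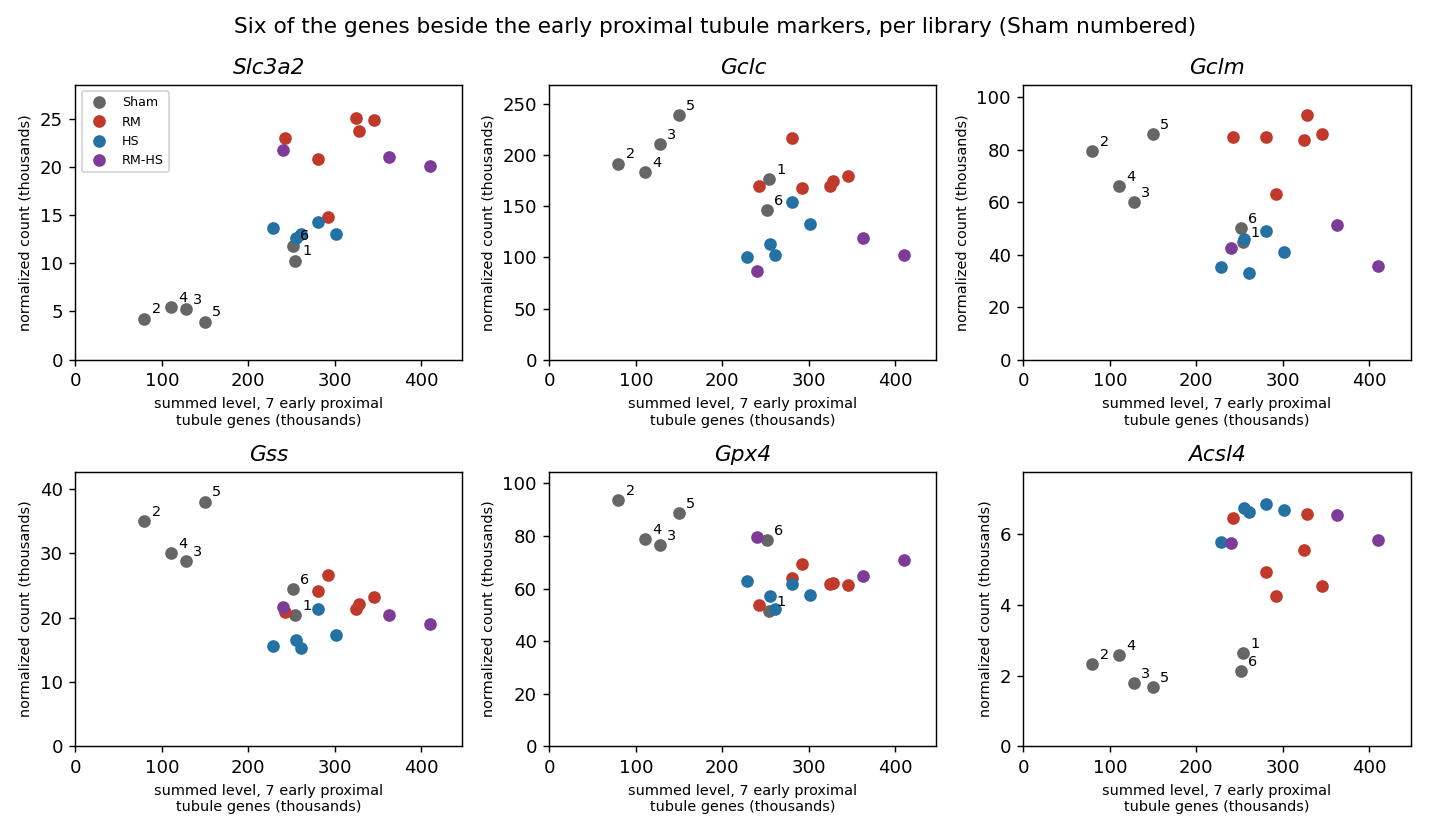
Normalized read count of 6 members (vertical axis, scaled as marked) against the summed level of 7 early proximal tubule markers (horizontal axis, scaled as marked), 1 point a library and Sham libraries numbered. Sham 2 to 5 lie at 79759 to 149748 on the marker axis, with lower Slc3a2 and higher Gss than Sham 1 and 6, while Acsl4 in Sham stays between 1676 and 2631.

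Read over the 8 members, the comparisons with Sham called many genes throughout the table, and all 3 share the same Sham libraries. In RM 7 of 8 members passed, 5 higher and 2 lower, where 53% of all tested genes passed, 26.2% higher and 26.8% lower. In 4 members (Slc7a11, Slc3a2, Gsr and Acsl4) RM and Sham did not overlap, as in 25.7% of all genes. The median change was 0.46 over the members and -0.04 over all genes. In HS 7 of 8 passed, 3 higher and 4 lower, where 46.4% of all genes passed, 23.3% higher and 23.2% lower. In 2 members (Slc3a2 and Acsl4) HS did not overlap Sham, as in 25.9% of genes, and the median was -0.16 against -0.03. In RM-HS 7 of 8 passed, 4 higher and 3 lower, where 42.3% of all genes passed, 21.3% higher and 21.0% lower. In 5 members RM-HS and Sham did not overlap, as in 32.5% of genes, and the median was 0.18 against -0.03. With Sham 1 and 6 alone, 3 members passed in HS (Slc7a11, Gss and Acsl4), where 4105 of all 15954 tested genes passed. When the name letter entered the model, the RM calls of Gclm, Gss and Gpx4 were lost (0.35, -0.19 and -0.17, limma adjusted p = 0.26, 0.46 and 0.48), as was the HS call of Gpx4 (-0.33, limma adjusted p = 0.062). In RM 1 alone against Sham, among libraries named with R, the changes were 5.49 for Slc7a11, 0.98 for Acsl4 and 0.40 for Gsr. Slc3a2 had 1.25 in RM 1, while Gclm, Gss and Gpx4 had 0.011, -0.12 and -0.14. That 1 library gives no spread within RM.

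The injury groups were then set against each other without Sham. RM stood above HS in 6 of 8 members, where 23.8% of all genes passed, 11.1% higher and 12.6% lower, and in 5 members the groups did not overlap, as in 14.2% of genes. The differences were 6.26 ± 0.64 for Slc7a11 (76.7-fold, limma adjusted p = 1.6e-06), 1.02 ± 0.16 for Gclm (2.03-fold, limma adjusted p = 0.00014) and 0.59 ± 0.14 for Gclc (1.5-fold, limma adjusted p = 0.0051). Gsr was higher by 0.47 ± 0.08 (limma adjusted p = 0.0004), Slc3a2 by 0.70 ± 0.23 (limma adjusted p = 0.028) and Gss by 0.43 ± 0.13 (limma adjusted p = 0.022). The Slc3a2 call was lost without RM 4, 5 or 6 or HS 2, 4 or 5 (limma adjusted p = 0.053 to 0.059), and the Gss call without HS 3 or 4 (0.051 and 0.060). With the name letter in the model the Slc3a2 call was also lost (0.60, limma adjusted p = 0.11). Its difference was 0.13 among libraries named with R. Gpx4 had 0.09 ± 0.12 (limma adjusted p = 0.65). Among libraries named with R, where RM is RM 1 alone, no member passed in limma, with 2 members at an unadjusted p under 0.05, and Slc7a11 had 2.86 (limma adjusted p = 0.19). On all libraries edgeR and DESeq2 each called 6.

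RM-HS stood above HS in 2 of 8 members, where 20.6% of all genes passed, 10% higher and 10.6% lower. In 4 members the groups did not overlap, as in 24.9% of genes. Slc7a11 was 27.0-fold higher in RM-HS (4.76 ± 0.78, limma adjusted p = 0.00041) and Gsr 1.31-fold (0.39 ± 0.10, limma adjusted p = 0.011). The Gsr call was lost without RM-HS 1 (0.32, limma adjusted p = 0.063). Slc3a2 did not pass (0.65 ± 0.27, limma adjusted p = 0.094), although it passed without Sham 6, which enters through the shared spread (limma adjusted p = 0.042), and in a fit of RM-HS and HS alone (limma adjusted p = 0.0021). Gpx4 had 0.30 ± 0.15 (limma adjusted p = 0.17).

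RM-HS stood below RM in 2 of 8 members, where 1.08% of all genes passed, 0.395% higher and 0.689% lower, and in the same 2 members the groups did not overlap, as in 7.76% of genes. These were the ligase subunits, with Gclc at -0.81 ± 0.17 (limma adjusted p = 0.029) and Gclm at -0.94 ± 0.19 (limma adjusted p = 0.026), so that RM carried 1.76-fold and 1.92-fold as much. Both calls lay close to the threshold, and both were lost without RM 5, without RM 6 or without any 1 RM-HS library, and Gclm also without RM 3 (limma adjusted p = 0.0501 to 0.12). With the name letter in the model neither passed (-0.80 and -0.90, limma adjusted p = 0.37), nor with libraries named with R alone (-0.72 and -0.56, limma adjusted p = 0.69 and 0.84). In that last fit Slc7a11 in RM-HS lay above RM 1 (1.27, limma adjusted p = 0.93). RM 1 and the HS libraries, which carry both letters, are the source of the letter's estimate.

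**Figure D4:**
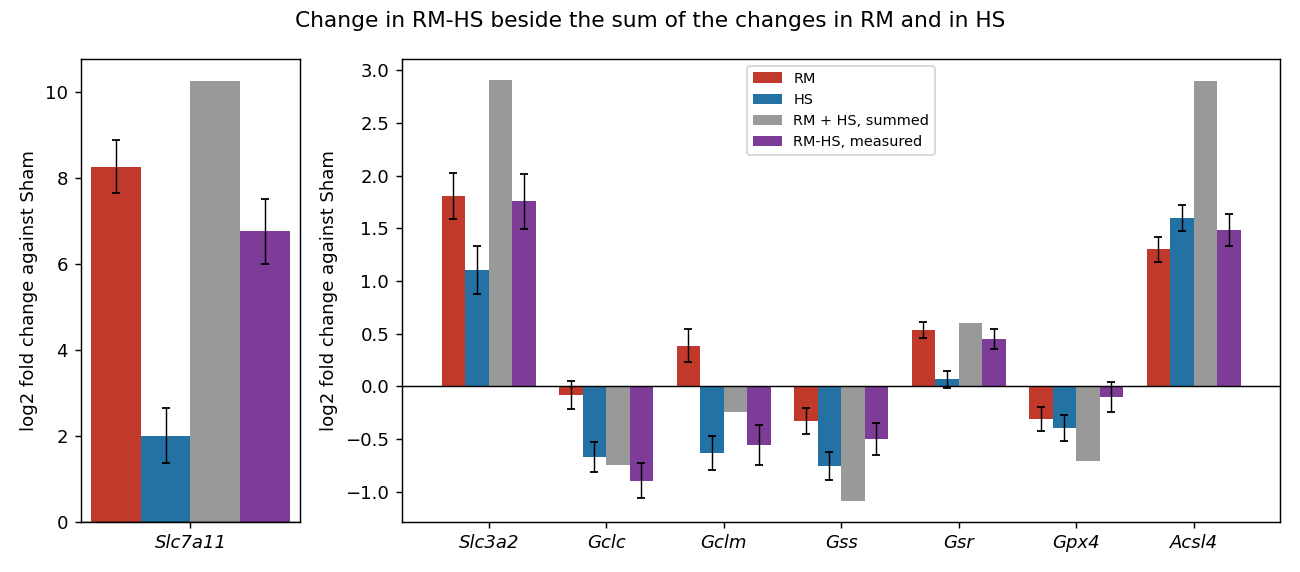
Log2 fold change against Sham of each member in RM, HS and RM-HS (± SE), beside the sum of the RM and HS changes (grey, no error drawn). In Acsl4 the sum is 2.90 and the RM-HS change 1.48.

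The 4 groups allow the change in RM-HS to be compared with the sum of the changes in RM and HS on the log2 scale. Of 8 members 5 departed from that sum, 2 upwards and 3 downwards, where 31.7% of all genes passed, 14.9% upwards and 16.8% downwards. Acsl4 was 1.30 higher in RM, 1.60 in HS and 1.48 in RM-HS, a departure of -1.42 ± 0.19 (limma adjusted p = 7.3e-05). Slc7a11 reached 6.76 where the sum was 10.26 (-3.51 ± 0.99, limma adjusted p = 0.011), and Slc3a2 1.76 where it was 2.91 (-1.16 ± 0.35, limma adjusted p = 0.015). Gss and Gpx4 fell less than the sum, with departures of 0.58 ± 0.20 and 0.60 ± 0.19 (limma adjusted p = 0.032 and 0.020). Gclc, Gclm and Gsr had -0.15 ± 0.22, -0.31 ± 0.25 and -0.15 ± 0.13, which did not pass. With Sham 1 and 6 alone Acsl4 (-1.29), Slc7a11 (-4.92) and Gclm (-0.71) passed (limma adjusted p = 0.0013, 0.0065 and 0.042), and Slc3a2, Gss and Gpx4 did not (-0.33, 0.21 and 0.33). In that setting 3151 of all 15954 genes passed. Slc7a11 rests on 5 reads in Sham 1 and 3 in Sham 6, so the size of its departure there depends on the pseudocount. With the name letter in the model Acsl4 alone passed (-1.19, limma adjusted p = 0.023). With libraries named with R alone no member passed in limma, and 1 had an unadjusted p under 0.05. On all libraries edgeR and DESeq2 each called 5. The Gss call was also lost without Sham 2, RM 3, HS 2, HS 3, HS 4, RM-HS 1 or RM-HS 2 (limma adjusted p = 0.050 to 0.080), and the Gpx4 call without RM-HS 2 (0.067).

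**Figure D5:**
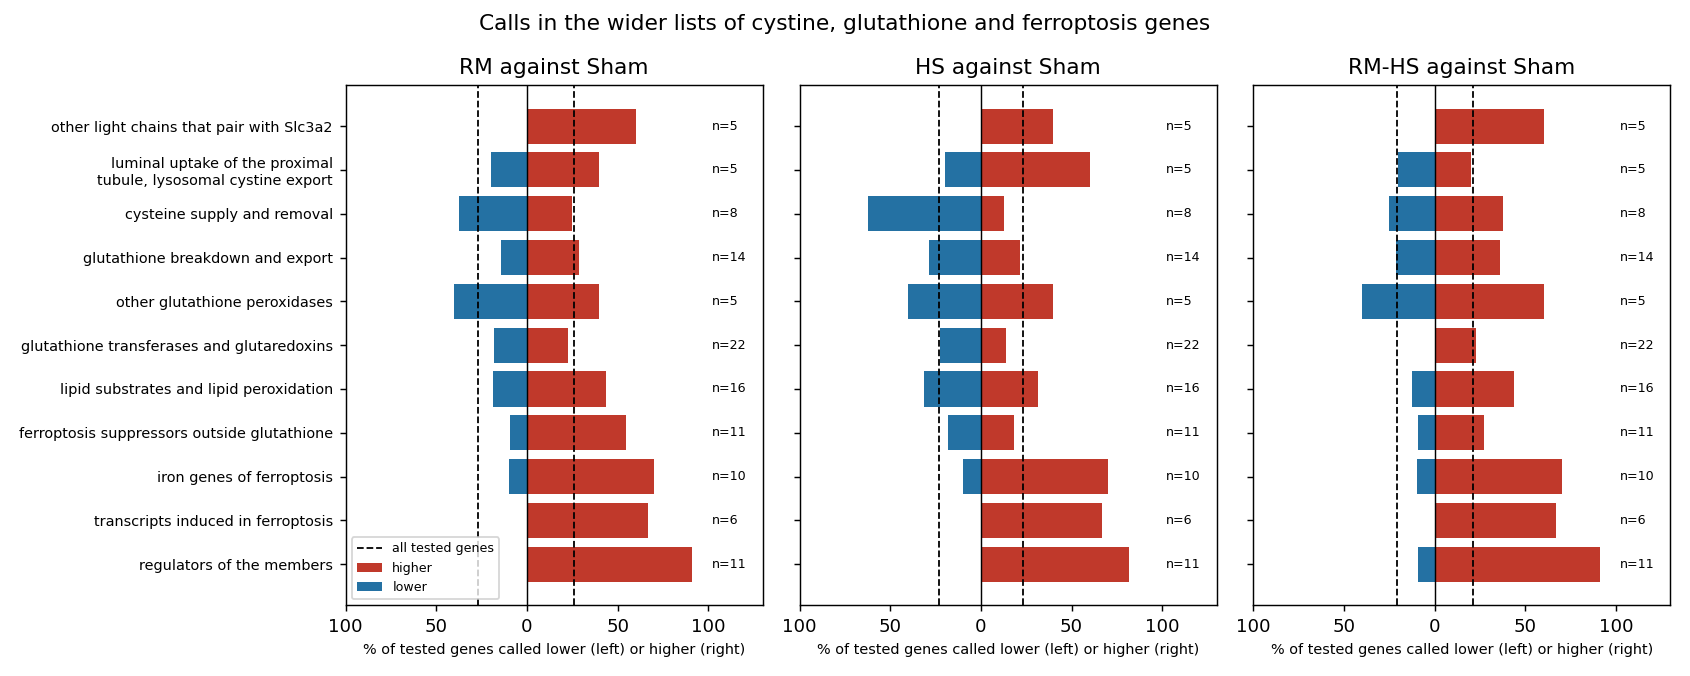
Share of the tested genes of each wider list called higher (right, red) or lower (left, blue) against Sham in RM, HS and RM-HS, with dashed lines at the share of all tested genes. In the list of regulators 10 of 11 genes are higher in RM.

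Around the members, regulators of their transcription were higher in every injury group. Of 11 regulators 10 were higher in RM and 9 in HS, and 10 were higher and 1 lower in RM-HS, with medians of 2.10, 0.86 and 1.91. Over all tested genes 26.2%, 23.3% and 21.3% were higher and 26.8%, 23.2% and 21.0% lower. Against Sham 1 and 6 alone 10, 8 and 9 regulators were higher, where 2879, 2337 and 2392 of all 15954 genes were higher. Bach1, a repressor at antioxidant response elements that haem displaces, rose by 3.22 ± 0.16, 1.62 ± 0.16 and 2.65 ± 0.19. The small Maf proteins, partners of Nrf2 and Bach1, rose with it, Maff by 3.89 ± 0.22, 1.67 ± 0.23 and 3.27 ± 0.27 and Mafg by 1.92 ± 0.12, 0.86 ± 0.12 and 1.91 ± 0.14. Atf3, a stress-induced factor, rose by 6.24 ± 0.31, 2.99 ± 0.33 and 6.28 ± 0.38. Nfe2l2, Atf4 and Keap1 were picked after their values were seen. Nfe2l2, which encodes Nrf2, rose by 1.04 ± 0.09, 0.30 ± 0.09 and 0.81 ± 0.11, Atf4 by 2.12 ± 0.14, 0.91 ± 0.15 and 2.15 ± 0.18, and Keap1, which holds Nrf2 in check, had -0.01 ± 0.09, -0.13 ± 0.10 and -0.32 ± 0.11, of which only the last passed. The HS rise of Nfe2l2 and the RM-HS fall of Keap1 did not pass with Sham 1 and 6 alone (0.16 and -0.12, limma adjusted p = 0.28 and 0.56). All regulators named here except Keap1 were also higher in RM than in HS.

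Most iron genes and transcripts known to be induced in ferroptosis were higher with all controls. Of 10 iron genes 7 rose and 1 fell in each of the 3 comparisons. Over all tested genes 26.2%, 23.3% and 21.3% were higher in RM, HS and RM-HS, and 26.8%, 23.2% and 21.0% lower. Against Sham 1 and 6 alone 6, 2 and 5 iron genes rose and 2, 1 and 1 fell. In that setting 2879, 2337 and 2392 of all 15954 genes were higher and 2371, 1768 and 1955 lower. Hmox1, haem oxygenase, which frees iron from haem, had 2522 ± 5088 in Sham, 156751 ± 24147 in RM, 10184 ± 14473 in HS and 92068 ± 48626 in RM-HS. Its rises were 7.64 ± 0.72, 2.87 ± 0.76 and 6.70 ± 0.88. Against Sham 1 and 6 alone the RM rise was 6.04 ± 0.98, and the HS value did not pass (1.28). The SD of Hmox1 exceeded its mean in both Sham and HS. The HS value therefore depends on which Sham libraries serve as controls, and it may also depend on single HS libraries, which was not tested. Slc40a1, the iron exporter ferroportin, rose by 1.88 ± 0.28, 1.23 ± 0.29 and 1.10 ± 0.34, of which only the RM rise passed against Sham 1 and 6 alone (1.36, with 0.72 in HS and 0.58 in RM-HS). Slc39a14, an importer of non-transferrin iron, rose by 1.02 ± 0.22, 1.90 ± 0.23 and 1.56 ± 0.27. Of 6 ferroptosis-induced transcripts, which share Hmox1 and Tfrc with the iron list, 4 rose in each comparison, and with Sham 1 and 6 alone 3 rose and 1 fell in RM, 2 rose in HS and 4 rose in RM-HS. The gene that fell was Tfrc, the transferrin receptor (-0.75, limma adjusted p = 0.0038). Chac1, which degrades glutathione, rose from 17.3 ± 8.93 in Sham to 672 ± 617 in RM, 98.2 ± 62.0 in HS and 938 ± 678 in RM-HS (4.87 ± 0.56, 2.41 ± 0.59 and 5.48 ± 0.69). Sat1, a polyamine acetyltransferase, rose by 1.59 ± 0.19, 1.29 ± 0.20 and 2.06 ± 0.23.

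Lists nearer to glutathione moved in mixed directions. The share of all tested genes that passed was 53% in RM, 46.4% in HS and 42.3% in RM-HS. It was 5250, 4105 and 4347 of 15954 genes with Sham 1 and 6 alone. Of 14 genes of glutathione breakdown and export 4 rose and 2 fell in RM, 3 and 4 in HS, and 5 and 3 in RM-HS. Of these, 2, 3 and 3 rose with Sham 1 and 6 alone, and the falls no longer passed. Abcc2, an exporter of glutathione conjugates, rose by 3.87 ± 0.32, 3.28 ± 0.33 and 2.43 ± 0.39, a departure from additivity of -4.72 ± 0.51, and Ggt1, which opens extracellular glutathione, fell by 0.45 ± 0.11, 0.60 ± 0.12 and 0.42 ± 0.14. The fall of Ggt1 did not pass in any group against Sham 1 and 6 alone (-0.17, -0.32 and -0.15). Of 5 other glutathione peroxidases, Gpx2 and Gpx3 rose and 2 genes fell in RM and HS, and 3 rose and 2 fell in RM-HS. The counts with Sham 1 and 6 alone were 1 higher and 2 lower in RM, 1 and 1 in HS, and 2 and 2 in RM-HS. Gpx2 rose by 2.68 ± 0.52, 2.35 ± 0.54 and 2.80 ± 0.63. Gpx3, the plasma form made by proximal tubules, had 2.52 ± 0.51, 2.16 ± 0.53 and 2.77 ± 0.62 with all controls and 0.50, 0.13 and 0.75 with Sham 1 and 6 alone, where no group passed. Gpx1 rose in RM-HS (0.81 ± 0.14) and was higher there than in RM (0.61 ± 0.14) and HS (0.51 ± 0.15). Of 22 glutathione transferases and glutaredoxins, 5 rose and 4 fell in RM, 3 and 5 in HS, and 5 rose in RM-HS. In each group that was a smaller share than over all genes. Sham 1 and 6 alone gave 7 higher and 1 lower in RM, 4 and 1 in HS, and 3 higher in RM-HS. Reads of the near-identical Gsta and Gstm copies may be split between them.

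Genes of lipid substrates and of the defences that do not use glutathione made up the remaining lists. For comparison, 53%, 46.4% and 42.3% of all tested genes passed in RM, HS and RM-HS. These became 5250, 4105 and 4347 of 15954 genes with Sham 1 and 6 alone. Of 16 lipid genes 7 rose and 3 fell in RM, 5 and 5 in HS, and 7 and 2 in RM-HS, and against Sham 1 and 6 alone 3 and 3, 3 and 2, and 1 and 2. Acsl3, which activates monounsaturated fatty acids, rose beside Acsl4 by 1.18 ± 0.14, 0.93 ± 0.15 and 0.77 ± 0.17. Far1 and Agps, enzymes of ether lipid synthesis, rose by 1.17 ± 0.12, 1.11 ± 0.12 and 1.0 ± 0.14 and by 0.93 ± 0.13, 1.11 ± 0.13 and 0.60 ± 0.16. The RM-HS rises of Acsl3 and Agps did not pass with Sham 1 and 6 alone (both 0.49, limma adjusted p = 0.080 and 0.063). Of 11 suppressors outside glutathione 6 rose and 1 fell in RM, 2 and 2 in HS, and 3 and 1 in RM-HS, and with Sham 1 and 6 alone 3 and 1, 1 and 1, and 2 and 1. Mboat2, which moves monounsaturated fatty acids into phospholipids, fell by 2.42 ± 0.23, 1.75 ± 0.24 and 2.59 ± 0.28, from 774 ± 169 in Sham to 155 ± 80.5, 227 ± 34.3 and 126 ± 16.8. Nqo1, a quinone reductase and Nrf2 target, rose by 2.12 ± 0.33 in RM and 1.0 ± 0.40 in RM-HS and had -0.14 ± 0.34 in HS. Aifm2, the ubiquinone reductase FSP1, rose by 0.47 ± 0.16 in RM and 0.74 ± 0.17 in HS, and against Sham 1 and 6 alone it did not pass (-0.02 and 0.25).

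The genes whose log2 levels followed each member most closely over the 20 libraries were named as a description. All libraries share the 4 groups and the Sham libraries that stand apart, which shape these correlations, so no p is given. Slc7a11 followed Csrnp1, Oser1, Cnbp and Riok3 (r = 0.97 to 0.96), and Slc3a2 followed F3, Rbm28, Slc16a1 and Sorcs2 (r = 0.97 to 0.96). Gclc was nearest to the organic anion transporters Slco1a3 and Slco1a5 (both r = 0.91) and to Ust5r and Adgre1 (both r = 0.88), and Gclm to Nomo1 and Whrn (both r = 0.87). Gss followed Slc6a18 (r = 0.94), Gsr followed Tkt (r = 0.92), and Gpx4 followed the mitochondrial ribosome genes Mrps34 and Mrpl54 (both r = 0.94) and the complex I subunits Ndufs5 and Ndufa7 (r = 0.94 and 0.92). Acsl4 followed Wdr26, Cacul1, Rasa2 and Rap1b (r = 0.97 to 0.96).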

How the data were processed

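RNA of frozen rat kidneys was measured in 20 libraries. Per the submitters' processing notes, reads were examined with FastQC 0.11.2, Picard 1.119 and SAMtools 1.0, aligned with STAR to rn6 and counted with featureCounts of Subread 1.5.0. The deposited signal values are read counts that the authors normalized with DESeq2, per the same notes. Whole reads were recovered for 100% of values, within 0.1 read. Testing was limited to the 15954 of 34681 rows that reached 10 in 3 or more libraries. Values were taken as log2(value + 1), and the 4 group means were fitted over all 20 libraries with limma (version 3.58.1, trend option, R 4.3.3). A gene was called at a Benjamini-Hochberg adjusted p under 0.05 over all tested genes. The procedure was tested on simulated counts that held neither the split among Sham libraries nor the name letter. That test therefore cannot show how these affect the calls. Counts rest on 23.3 to 51.9 M non-mitochondrial reads a library, so the spread between libraries set the precision except in Slc7a11 in Sham.

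Libraries were grouped by their disease label, and replicate numbers follow the listed order. Alternatives were pseudocounts of 0.5 and 8, no filter, a filter of 50, trimmed mean of M values and upper quartile scaling, fits of only the groups compared, the name letter as covariate, libraries named with R alone, Sham 1 and 6 alone as controls, count tests of the recovered reads with DESeq2 1.42.0 and edgeR 4.0.16, and leaving out each library. Among libraries named with R, the lone RM library is assumed to vary like the other groups. The wider lists against Sham 1 and 6 alone were added after seeing the data. The members and gene lists were chosen with earlier results of these data known. From each wider list up to 4 called genes with the smallest adjusted p could be named, of which the text gives most, and for each member the 4 genes with the highest correlation and a mean of at least 50. Promoter sequences are from RefSeq (GRCr8), whose coordinates were not joined to those of the table. Levels of different genes were not ranked against each other, as no transcript lengths were used. The differences of Gclm from Gclc and of Acsl4 from Gpx4 within a library were compared only between groups.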

Additional observations from a re-analysis of the deposited data

Results flagged for a closer look

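In 3 cases 1 library lay far from the rest of its group, by a gap large against the group's range, which chance alone gives in about 1 in 20 groups. Gclc stood at 216549 in RM 2 against 167417 to 180005 in the other RM libraries. Gclm stood at 63181.9 in RM 1 against 83702 to 93116.5 in the other RM libraries, and RM 1 is also the RM library whose name begins with R. Acsl4 stood at 5778.81 in HS 3 against 6619 to 6869.6 in the other HS libraries.

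In 5 members the effect of HS differed with RM present, as tested by the departure of RM-HS from the sum of RM and HS. The departures were -3.51 in Slc7a11, -1.16 in Slc3a2, 0.58 in Gss, 0.60 in Gpx4 and -1.42 in Acsl4 (limma adjusted p = 0.011, 0.015, 0.032, 0.020 and 7.3e-05). Those of Slc3a2, Gss and Gpx4 did not pass with Sham 1 and 6 alone as controls, and that of Acsl4 alone passed with the name letter in the model.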

How the results depend on the processing

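Over single members and contrasts, 577 of the values under a changed setting and 1063 of those with 1 library left out kept their direction and side of the threshold, 52 and 55 lost the call, 2 and 1 gained one, and 9 and 1 changed sign. The number of members called in RM against Sham was 7, and 4 in a fit of RM and Sham alone, 4 with the name letter as covariate and 2 with libraries named R. HS against Sham gave 7, and 3 with Sham 1 and 6 alone. RM-HS against RM gave 2, and 0 both with the letter and among libraries named R. RM-HS against HS gave 2 and RM against HS 6, and among libraries named R these were 1 and 0. The departure from additivity gave 5, and 1 with the letter, 0 among libraries named R and 3 with Sham 1 and 6 alone. Leaving out 1 library moved the counts between 4 and 7, 6 and 7, and 5 and 7 against Sham for RM, HS and RM-HS, between 0 and 2 for RM-HS against RM, 1 and 3 for RM-HS against HS, 4 and 6 for RM against HS, and 3 and 5 for additivity.

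Signs turned, without a call before or after except for Gss in RM, which was called with all controls, as follows. With Sham 1 and 6 alone, Gclc in RM had 0.16, Gss in RM 0.039 and Gpx4 in RM-HS 0.17. Upper quartile scaling gave Gsr in HS -0.056. Among libraries named R, RM-HS against RM gave 1.27 for Slc7a11, 0.50 for Slc3a2 and 0.056 for Gsr, and RM-HS against HS gave -0.011 for Gclm. The letter as covariate gave 0.15 for Slc3a2 in RM-HS against RM, and leaving out 1 library moved Gclm in RM-HS against HS between -0.049 (without RM-HS 1) and 0.21. The cause of these changes was not tested beyond the fewer samples used. Calls over all genes for RM-HS against RM were 173, and 42 in a fit of these groups alone, 480 without RM 1, 21 without RM-HS 1, 499 with DESeq2 and 129 with edgeR. With the letter or with libraries named R, limma called 0, with 1183 and 1101 genes at an unadjusted p under 0.05, and of the members 2 and 1. Those for additivity were 5054, and 617 with the letter, 3151 with Sham 1 and 6 alone and 0 among libraries named R, where 2079 had an unadjusted p under 0.05. With Sham 1 and 6 alone the calls against Sham went from 8455 to 5250 in RM, 7410 to 4105 in HS and 6749 to 4347 in RM-HS. With the letter, RM against Sham gave 4551, and among libraries named R 766, RM against HS 195 in place of 3791, and RM-HS against HS 1203 in place of 3287. Upper quartile scaling moved the median of all genes to -0.18, -0.15 and -0.16 against Sham in RM, HS and RM-HS, and to 0.15 for additivity. The calls then split into 3250 higher and 5539 lower in RM, 2938 and 4705 in HS, 2589 and 4417 in RM-HS, and 3158 and 2081 for additivity, against 4178 and 4277, 3712 and 3698, 3395 and 3354, and 2376 and 2678 with the authors' scaling.

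No paired analysis was possible because the labels give no replicate numbers, and the numbers used follow the listed order. Only 3 RM-HS libraries and 1 RM library named R limit the comparisons of RM with RM-HS. The reads of Slc7a11 in Sham, 3 to 32 a library, limit the size of its change: with a pseudocount of 8 it was 7.61 in RM.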
